A study of Mus musculus with 12 samples.

Results

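The Control group of a mouse cochlea series was described here at the level of single genes. It held 3 of the 12 samples of the series, taken at postnatal day 7, and was chosen by the group name in the sample titles. Total RNA came from the cochlea, the coiled hearing organ, of which the apical and middle turns were taken, with at least 6 cochleae pooled for the group, and was sequenced on Illumina libraries. The labels give the Control group no allele, strain, Cre driver or treatment, and whether the controls carried an allele or had an agent is not stated there. The other groups, with overexpression of β-catenin, knockout of Notch1 or both, were not used. Levels are in FPKM as deposited by the authors, a count of fragments scaled by transcript length and by library size, so that levels can be set side by side between genes. How library size was measured is not known here. After merged rows and small RNA rows were left out, 21340 of the table's 23598 rows remained, 1 for each gene symbol. Nothing in the labels says whether the 3 samples came from separate pools of animals, so the spread between them may be technical in part. Since only 1 group was described, no test between groups was made and no p-value is given. The number of sequenced fragments is not given with the values, so the depth of each sample is unknown.

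The cochlea holds a strip of sensory epithelium, the organ of Corti, in which hair cells turn sound into electrical signals and supporting cells surround and sustain them. In the first postnatal week of the mouse the ear cannot yet hear. Hair bundles, synapses and outer hair cell properties are still maturing, and the tall cells of the greater epithelial ridge, medial to the hair cells, secrete the tectorial membrane, a gel that will touch the bundles. The lateral wall carries the stria vascularis, which pumps potassium into the endolymph, and the spiral ligament of fibrocytes behind it. Spiral ganglion neurons with their Schwann cells carry the signal to the brain, and the whole sits in a bony capsule.

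Control sample 1 stood apart from Control samples 2 and 3. Among 6820 genes with a mean of at least 10 FPKM, the robust SD of the log2(FPKM + 0.5) difference was 0.41 between samples 1 and 2, 0.38 between samples 1 and 3 and 0.13 between samples 2 and 3. Of 12940 genes with at least 1 FPKM in 1 of the samples, 8.55% differed at least 2-fold on the same log2(FPKM + 0.5) scale, which is used for every 2-fold count below, between samples 1 and 2, 7.44% between samples 1 and 3 and 0.301% between samples 2 and 3. In 4.52% of these genes sample 1 was at least 2-fold above both others, and in 1.76% it was at least 2-fold below both. Samples 2 and 3 were not copies of each other, with 2 identical values among the 6820 genes. Whether they came from separate pools is not known, and counting noise between them could not be set without the depth. For this reason the value of every sample is given for most genes named, in the order of samples 1, 2 and 3. A few genes are given by their means. Some list medians are given for each sample where sample 1 differed. Since these are bulk samples, fewer cells of a type and less RNA per cell cannot be told apart.

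Of the 21340 genes, 11907, or 55.8%, had at least 1 FPKM in all 3 samples and are called detected below. At least 10 FPKM in all 3 samples was reached by 28.7%, and at least 1000 FPKM by 49 genes. The shares of 55.8% and 28.7% stand beside each count of detected genes and of genes at 10 FPKM below. The gene lists used here held 711 symbols, of which 681 had a row of their own. Another 30 were not analysed here, 29 of them because they stood only in merged rows, among them the hair cell genes Lhx3, Tbx2, Myo15, Eps8l2, Xirp2 and Slc17a8, the ligament gene Otos and the otoconial gene Oc90. The sums of FPKM over the single-gene rows were 560930, 509494 and 501966, and ribosomal protein genes took 12.7, 19.6 and 19.7% of them. The predicted rows 2410017I17Rik and Gm6034 held 17.8, 1.02 and 0% of the sums, and without them the ribosomal shares were 15.4, 19.8 and 19.7%. In 26.4% of the rows the locus was shared with another row, so reads of overlapping genes may have been divided between rows.

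**Figure D1:**
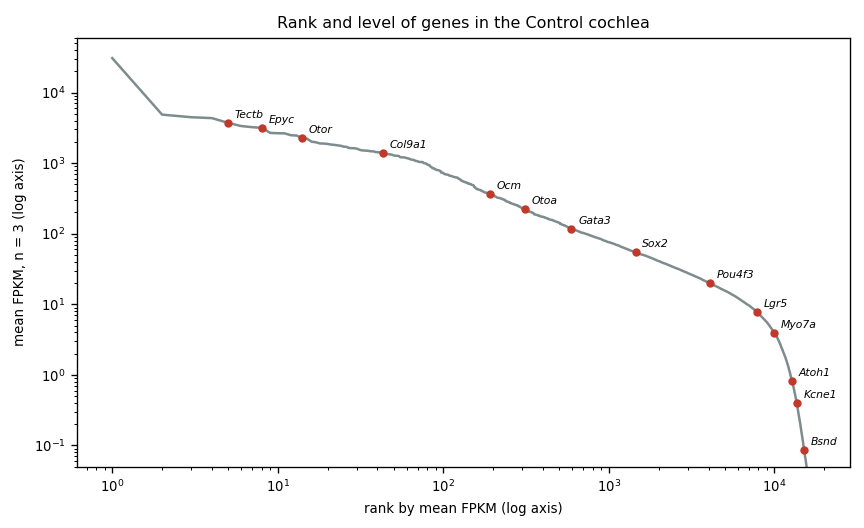
Rank of each gene by its mean over the 3 Control samples (horizontal, log axis, 1 is the highest) against that mean in FPKM (vertical, log axis), with genes named in the text in red. Tectb, Epyc and Otor lie among the 14 highest of 21340 genes, while the hair cell factor Atoh1 ranks 12772 and the marginal cell gene Bsnd 15078.

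Genes of the cochlear gel and connective tissue stood near the very top of the ranking, among genes of protein synthesis. Tectb, which codes for β-tectorin, a protein of the tectorial membrane, had 3646, 3711 and 3806 FPKM and ranked 5. Epyc, which codes for epiphycan, a small leucine-rich proteoglycan, had 2363, 3786 and 3344 FPKM and ranked 8. Otor, which codes for otoraplin, a secreted protein of the inner ear, had 2378, 2321 and 2117 FPKM and ranked 14. Other genes of this height were Clu with 2023, 2820.4 and 3070.2 FPKM, a secreted chaperone, and Sparc with 3079, 2173 and 2200.3 FPKM, a matricellular protein. They lay in the range of the translation factor Eef1a1, which had 4135, 5103 and 5357 FPKM and ranked 2. Tectb differed little between the samples, and its lowest value was above the highest of Col9a1, the next gene of its list. Epyc and Clu were lower in sample 1 than in both others, and Sparc was higher there. The locus of Tectb was shared by 2 rows and that of Epyc by 3, so these levels carry some uncertainty.

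Among the 20 highest genes, with ribosomal protein, mitochondrial, hemoglobin and predicted genes left out, several were housekeeping genes. Filip1l, an actin-associated protein, had 4285, 4065 and 5054 FPKM and ranked 3, but its locus was shared by 5 rows, so this level is uncertain. The growth-related protein Tpt1 had 2978, 3434 and 3278 FPKM, the folding enzyme gene Ppia 1590.3, 2082 and 2022 FPKM and the ubiquitin ligase subunit gene Skp1a 2053, 1879 and 1745 FPKM. Itm2b, Fth1 (a ferritin chain), Ubb (ubiquitin), Nrep, Ptma (prothymosin) and Tmsb4x (thymosin, which binds actin) lay between means of 1269 and 1554 FPKM. Ptn, a heparin-binding growth factor, had 1561, 1169 and 1217 FPKM. The remaining genes of the 20 were the collagens Col9a1 and Col2a1 and the supporting cell gene S100a1, described below. The loci of Tpt1 and Col9a1 were also shared, by 2 and 3 rows.

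**Figure D2:**
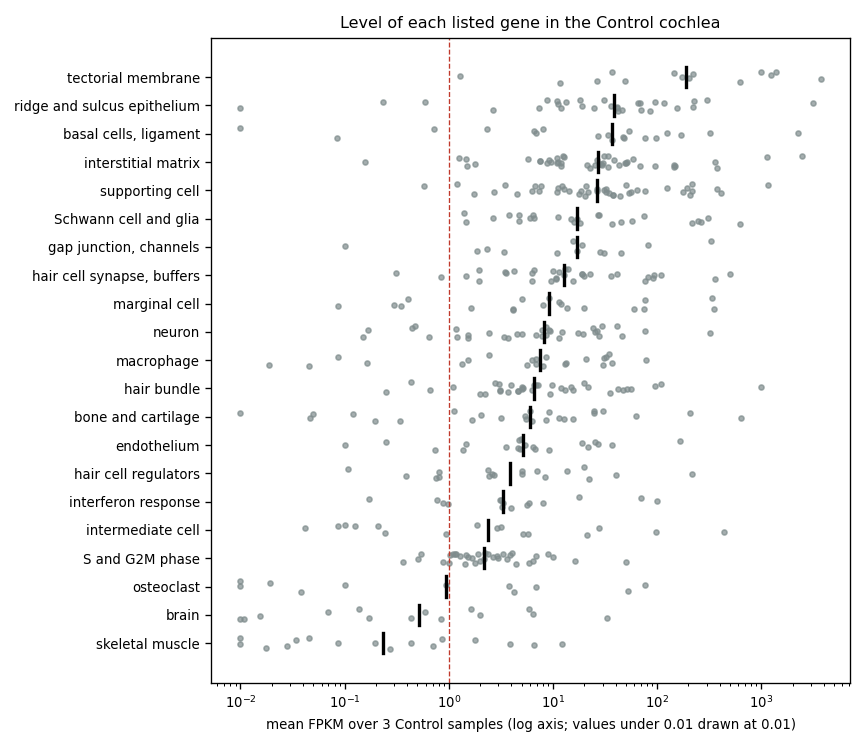
Mean FPKM over the 3 Control samples (horizontal, log axis, values under 0.01 drawn at 0.01) of each gene in 21 lists, with the list median as a black bar and 1 FPKM as a dashed line. The tectorial membrane list has the highest median, at 189 FPKM, and skeletal muscle the lowest, at 0.234 FPKM.

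The tectorial membrane list was the highest by median of the cell and tissue lists. All 14 members with a row were detected, where 55.8% of all genes were, and 12 reached 10 FPKM in every sample. The median member lay at percentile 98.3 of all genes. Tecta, which codes for α-tectorin, the large partner of β-tectorin in the striated sheet of the membrane, had 148, 178 and 195 FPKM. Tectb was thus 24.6, 20.9 and 19.6 times the level of Tecta in samples 1, 2 and 3. The shared locus of Tectb makes this ratio less certain. Otoa, which codes for otoancorin, an anchor of the membrane on the spiral limbus, had 199.5, 231 and 232 FPKM. The gel glycoprotein otogelin, from Otog, had 43.2, 31.4 and 36 FPKM, and its relative Otogl had 41.1, 53.3 and 52.5 FPKM, and the ranges of the pair overlapped. Ceacam16, a later component of the striated sheet, was by far the lowest with 1.27, 1.17 and 1.38 FPKM. Zpld1, a zona pellucida domain protein, had 16.1, 9.55 and 9.53 FPKM. Emilin2, a matrix glycoprotein, was the one member at least 2-fold higher in sample 1, with 316, 143 and 157 FPKM.

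Promoters of 4 abundant genes are shown because they differ widely in CG dinucleotides, a sequence feature that splits mammalian promoters into CG-rich and CG-poor kinds. Each runs 5′ to 3′ on the gene's strand from 250 bases before to 50 bases after the start in RefSeq (GRCm38.p6, the mm10 build), with CG pairs in capitals.
Tectb, chr19:55180476-55180775, plus strand: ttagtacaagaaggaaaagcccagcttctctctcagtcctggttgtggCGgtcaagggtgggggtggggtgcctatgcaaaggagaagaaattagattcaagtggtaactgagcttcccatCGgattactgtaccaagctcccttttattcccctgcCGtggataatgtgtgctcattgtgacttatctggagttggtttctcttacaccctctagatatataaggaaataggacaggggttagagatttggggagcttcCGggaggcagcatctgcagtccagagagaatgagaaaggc
Otor, chr2:143078143-143078442, plus strand: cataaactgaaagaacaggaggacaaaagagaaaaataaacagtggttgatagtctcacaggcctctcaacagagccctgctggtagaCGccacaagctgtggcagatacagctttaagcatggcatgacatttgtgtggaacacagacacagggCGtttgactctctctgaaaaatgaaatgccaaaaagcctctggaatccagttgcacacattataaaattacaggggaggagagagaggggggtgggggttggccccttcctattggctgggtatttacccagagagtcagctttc
Ocm, chr5:144050560-144050859, minus strand: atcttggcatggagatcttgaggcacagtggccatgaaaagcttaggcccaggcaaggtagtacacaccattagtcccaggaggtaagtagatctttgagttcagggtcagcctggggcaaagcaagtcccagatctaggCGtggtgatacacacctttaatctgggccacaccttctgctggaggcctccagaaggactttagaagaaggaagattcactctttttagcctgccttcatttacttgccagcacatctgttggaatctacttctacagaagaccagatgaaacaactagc
Gjb2, chr14:57104653-57104952, minus strand: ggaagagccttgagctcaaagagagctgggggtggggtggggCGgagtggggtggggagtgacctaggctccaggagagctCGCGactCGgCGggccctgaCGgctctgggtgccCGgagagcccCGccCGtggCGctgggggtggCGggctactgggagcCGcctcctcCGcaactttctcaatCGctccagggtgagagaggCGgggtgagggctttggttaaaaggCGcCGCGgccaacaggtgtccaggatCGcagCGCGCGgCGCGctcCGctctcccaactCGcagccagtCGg
The promoters hold 4 CG pairs for Tectb, 2 for Otor, 1 for Ocm and 27 for Gjb2. The motif searched was CG, which reads the same on both strands. Of all 32851 promoters of this length in the RefSeq table, 38% hold 4 or fewer and 15.5% hold 27 or more. Gene sets were not compared, since such a check is void at this coverage: a promoter could be matched for 15760 of the 21340 genes and for 10 of the 14 tectorial membrane genes. The start used for Ocm lies upstream of the GENCODE gene given below. These counts describe the letters of each window and say nothing of what binds there.

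Hair cell genes were measured over a wide span, from abundant calcium-binding proteins to transcription factors near 1 FPKM. The highest member of the synapse and channel list was the calmodulin gene Calm2 with 508, 520.1 and 493 FPKM, which every cell uses. It was followed by Ocm, which codes for oncomodulin, a calcium-binding protein of outer hair cells. Ocm (chromosome 5, 144019804 to 144026670, GENCODE M21 on mm10) had 246, 453 and 381 FPKM and ranked 192. It was 3.16, 3.47 and 3.15 times the level of Calb1, another calcium buffer, which had 77.7, 130.3 and 121 FPKM. Pvalb, the close relative of Ocm that is found in inner hair cells and in neurons, had 129, 72 and 70.7 FPKM. Ocm and Calb1 were lower in sample 1 than in both others, and Pvalb was higher there.

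Among the regulators of hair cell fate, Pou4f3 and Gfi1 exceeded Atoh1. Pou4f3 (a POU-domain factor needed for hair cell survival) had 15.8, 22.2 and 21.7 FPKM, and Gfi1, a zinc-finger repressor that acts with it, had 6.45, 9.19 and 9.5 FPKM. Atoh1, the basic helix-loop-helix factor that starts hair cell differentiation, had 0.654, 0.823 and 0.947 FPKM, so that Pou4f3 was 24.2, 27 and 22.9 times its level in samples 1, 2 and 3. Hes6, a helix-loop-helix protein found in young hair cells, had 17.9, 23.4 and 25.4 FPKM. Barhl1, a homeobox factor of hair cell maintenance, had 2.69, 2.12 and 2.48 FPKM, and Ikzf2, which codes for the outer hair cell factor Helios, had 2.38, 2.39 and 2.43 FPKM. Insm1, a factor of young outer hair cells, had 0.473, 0.429 and 0.254 FPKM. Rbm24, an RNA-binding protein of hair cells, had 38, 41.2 and 42.9 FPKM, and Rasd2 had 10.9, 14.3 and 15.5 FPKM. Pcp4, a calmodulin-binding peptide, was the highest member of the list with 160.4, 253 and 237 FPKM. Of 18 members with a row, 13 were detected, and none was 2-fold apart between sample 1 and both other samples. The median difference of sample 1 was -0.12 on the log2(FPKM + 0.5) scale over 14 members past 1 FPKM, where the median of all genes was -0.06.

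Of 37 hair bundle and transduction genes, 33 were detected, or 89.2%, beside 55.8% of all genes. In every sample 13 reached 10 FPKM, or 35.1%, a share near the 28.7% of all genes. Fbxo2, a ubiquitin ligase subunit abundant in the cochlea, was the highest with 1057, 912 and 1024 FPKM and rank 77. Rdx, which codes for radixin, a linker of membrane and actin in stereocilia, had 61.1, 54.2 and 51.8 FPKM, and Ush1c, which codes for the scaffold harmonin, had 46.3, 53.5 and 53 FPKM. Of the myosins, Myo6, which anchors the base of the stereocilia, had 45.6, 49.9 and 46.3 FPKM. Myo7a, the motor at the upper end of the tip link, had 3.36, 4.11 and 4.29 FPKM, below Myo6 in every sample. The tip-link cadherins Cdh23 with 2.65, 2.73 and 2.96 FPKM and Pcdh15 with 1.55, 2.46 and 1.99 FPKM were low. Actin bundlers and crosslinkers of the stereocilia ranged from Pls1 with 19.7, 20.7 and 19.7 FPKM through Espn with 14.4, 10.6 and 10.7 FPKM to Fscn2 with 4.1, 5.37 and 5.78 FPKM.

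The transduction channel genes differed in level. Tmc1, the channel subunit of mature hair cells, had 3.91, 5.88 and 5.68 FPKM, and Tmc2, its partner in the first postnatal days, had 0.346, 0.751 and 0.896 FPKM. The ratio of Tmc1 to Tmc2 was 11.3, 7.82 and 6.33, above 1 in each sample. Lhfpl5, which links the channel to the tip link, had 22, 18.5 and 25 FPKM, and Tmie, another subunit of the complex, had 3.73, 9.16 and 7.78 FPKM. Cib2, a calcium-binding partner of the channel, was higher with 93.9, 113 and 121 FPKM, though it is known from many tissues. Sample 1 lay below both others in 24 of the 37 genes of the list, with a median difference of -0.26. It lay below both by any amount in 35.4% of all 21340 genes and in 49.8% of the 12940 genes past 1 FPKM. Of 34 members past 1 FPKM, only Smpx was at least 2-fold lower in sample 1, with 41.6, 131 and 116 FPKM, beside 1.76% of all genes.

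Genes of the hair cell synapse and membrane were detected in 31 of 33 cases. Slc26a5, which codes for prestin, the motor protein of outer hair cells, had 16.3, 15.6 and 15.2 FPKM. Otof, which codes for otoferlin, the calcium sensor of the hair cell synapse, had 16.6, 19.5 and 20.8 FPKM. The subunits of the nicotinic receptor that receives efferent fibres were Chrna10 with 10.4, 14.3 and 17.1 FPKM and Chrna9 with 7.67, 9.66 and 11.1 FPKM, a ratio of 1.35, 1.48 and 1.54. Kcnma1, the large-conductance potassium channel that hair cells take up as hearing begins, had 6.2, 2.22 and 2.32 FPKM. Cacna1d, the calcium channel of the hair cell synapse, had 6.28, 6.43 and 6.23 FPKM, but its locus is shared with 5 other rows. The giant scaffold proteins of the active zone were low, with 0.694, 0.986 and 0.868 FPKM for Pclo and 0.446, 0.25 and 0.235 FPKM for Bsn.

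In this list 4 of 31 members past 1 FPKM, Cplx1, Dner, Calb2 and Kcnma1, were at least 2-fold higher in sample 1 than in both others. That is 12.9%, beside 4.52% of all genes. Cplx1, a complexin of neuronal synapses, had 90.6, 8.07 and 8.63 FPKM, and Calb2, which codes for calretinin and is also found in spiral ganglion neurons, had 161, 60.3 and 62 FPKM. In the same sample neuronal genes were higher, as described below, and their part in these values was not tested. Kcna10 and Agr3 were at least 2-fold lower in sample 1, with 6, 13 and 13.1 FPKM for the potassium channel Kcna10 and 36.7, 105 and 89.1 FPKM for Agr3.

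**Figure D3:**
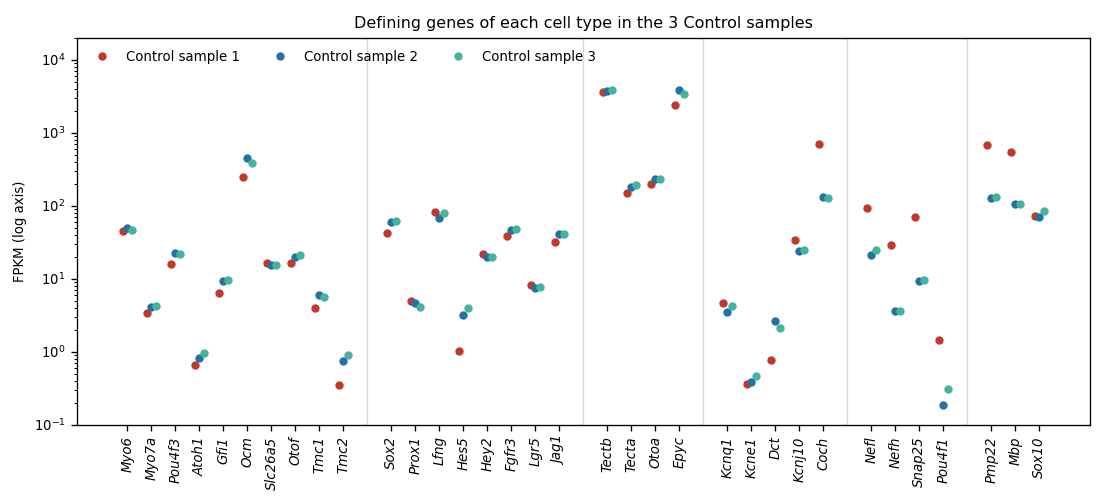
FPKM (log axis) of defining genes in Control samples 1 (red), 2 (blue) and 3 (green), grouped from left to right as hair cells, supporting cells, ridge and tectorial membrane, lateral wall, neurons and Schwann cells. The red point of Mbp is at 538 FPKM and the others at 105 and 106, while the 3 points of Slc26a5, Lgr5 and Tectb lie close together.

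The supporting cell list had a higher median rank than the hair cell lists. Of 43 listed, 40 were detected and 32 reached 10 FPKM in every sample. The median percentile was 85.4, against 72.7 for the hair cell synapse list, 60.8 for the hair bundle list and 52.9 for the regulators. This compares the lists as chosen and not the cell types, since the supporting cell list includes genes of many cells, such as the Id genes below. S100a1, a calcium-binding protein of supporting cells, had 924, 1301 and 1278 FPKM and ranked 61, but its locus is shared with 2 other rows. The inhibitors of differentiation Id3, Id2 and Id1, which are targets of BMP signalling in many cells, had means of 415 ± 55.1, 379 ± 60.6 and 178 ± 34.2 FPKM (SD, n = 3). Prss23, a serine protease, had 201, 229 and 217 FPKM. Sox2, the progenitor factor kept by supporting cells, had 41.7, 59.1 and 62.1 FPKM. Prox1, a homeobox factor of pillar and Deiters' cells, had 5, 4.59 and 4.05 FPKM. Fgfr3, the receptor that marks pillar and Deiters' cells at this age, had 38.2, 46 and 47.5 FPKM, and its ligand Fgf8, made by inner hair cells, had 2.36, 3.29 and 4.72 FPKM. Lgr5, the Wnt co-receptor that marks supporting cells able to divide in the newborn, had 8.07, 7.48 and 7.71 FPKM. The 3 values of Lgr5 lay close together, while Lgr6 had 10.4, 4.75 and 5.26 FPKM and was higher in sample 1.

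The peptide hormone genes of the list varied more. Npy, a neuropeptide known from pillar cells, had 116, 286 and 248 FPKM, and Trh, the precursor of thyrotropin-releasing hormone, had 0.601, 2.29 and 2.38 FPKM. Both were at least 2-fold lower in sample 1, as was Hes5, whereas Fabp3 and Hopx were at least 2-fold higher there. Over the 42 members past 1 FPKM the median difference of sample 1 was 0.03, and -0.17 with the samples scaled to the same sum of FPKM. That sum includes the predicted rows 2410017I17Rik and Gm6034, which made up 17.8% of it in sample 1. Slc1a3, the glutamate transporter of inner phalangeal and border cells around the inner hair cell, had 35, 61.3 and 56.2 FPKM.

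The Notch pathway, through which hair cells hold neighbouring cells in the supporting cell fate, had receptors, ligands and targets among the detected genes. Receptors came in the order Notch1 with 24.3, 14.7 and 16.6 FPKM, Notch3 with 8.35, 5.97 and 7.21 FPKM and Notch2 with 8.91, 3.91 and 4.23 FPKM, while the ranges of Notch2 and Notch3 overlapped. Notch4 had no row of its own and was not analysed. Notch1, the receptor changed elsewhere in the series, was highest in sample 1. The protease genes Adam10 with 84.3, 92.6 and 86.3 FPKM and Ncstn with 63.5, 67.3 and 66.8 FPKM, which cut the receptors, were among the highest members and serve other proteins too. Among ligands, Jag1 of supporting cells had 31.9, 40.4 and 41 FPKM and Jag2 of hair cells had 5.68, 4.67 and 4.81 FPKM. Dll4 had 2.63, 2.03 and 1.41 FPKM. Dll1, the ligand of newly formed hair cells, had 1.32, 0.408 and 0.691 FPKM, and Dll3 had 0.0764, 0.0565 and 0.194 FPKM. Lfng, a fringe enzyme that modifies Notch receptors, had 81.2, 68.4 and 80 FPKM, above Mfng with 5.27, 6.5 and 6.76 FPKM and Rfng with 17.3, 11.5 and 14.2 FPKM. Of the target genes, Hey1 had 69.5, 61.9 and 61 FPKM, Hey2 21.9, 19.8 and 19.5 FPKM, Hes1 13.7, 12.6 and 12.1 FPKM and Heyl 12.1, 12.1 and 12.4 FPKM. Hes5, the target most restricted to supporting cells next to hair cells, had 1.01, 3.18 and 3.98 FPKM, and sample 1 was below both others. Of 23 members with a row, 21 were detected, and over the 15 with a mean of at least 10 FPKM the median coefficient of variation was 6.48%, against 12.1% over all 6820 such genes.

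Of 49 Wnt pathway genes, 45 were detected and 31 reached 10 FPKM in every sample, or 63.3%, beside 28.7% of all genes. Ctnnb1, which codes for β-catenin, the junction protein and transducer of Wnt signals, led with 435, 369 and 372 FPKM. Secreted antagonists followed, with Sfrp1 at 131, 170.4 and 173 FPKM, the Wnt deacylase gene Notum at 109, 95.6 and 106 FPKM and Frzb at 95.2, 93.7 and 94.9 FPKM. Wnt5a, a ligand of planar polarity signalling, had 92.8, 62.8 and 56.7 FPKM, and Wnt7b and Wnt7a had 22.3, 21.1 and 22.5 FPKM for Wnt7b and 17.8, 23.5 and 24.6 FPKM for Wnt7a. The feedback genes Nkd1 and Axin2 had 97.8, 74.2 and 86 FPKM for Nkd1 and 20.3, 24 and 24.9 FPKM for Axin2. Dkk4 and Dkk1, both antagonists at the co-receptor, were at the bottom with 0, 0.0509 and 0 FPKM for Dkk4 and 0.143, 0.0272 and 0.0933 FPKM for Dkk1. Among Frizzled receptors Fzd9 with 47.7, 40.7 and 44.1 FPKM, Fzd7 with 45.5, 38.7 and 38.3 FPKM and Fzd6 with 35, 42.5 and 39.2 FPKM were the highest and overlapped in range, and Fzd5 with 3.11, 1.27 and 1.31 FPKM was the lowest of 10.

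The epithelial ridge and sulcus list had a median percentile of 90, with 27 of 30 members detected. Besides Epyc and Otoa, its high members were Epcam, an adhesion protein of epithelia, with 297, 305 and 302 FPKM, and Cldn9, a tight-junction protein needed in the organ of Corti, with 166, 256 and 259 FPKM. The transcription factors Gata3 and Gata2, which pattern the otic epithelium, had 132, 107 and 109.9 FPKM for Gata3 and 100.1, 90.9 and 92.9 FPKM for Gata2. Eya1, an otic factor, had 47.5, 76.9 and 71 FPKM. Fgf10, a growth factor of the greater epithelial ridge, had 20.2, 29.4 and 25.5 FPKM. The chloride channel gene Ano1 and the ATP receptor gene P2rx2, which serve the spontaneous activity of the ridge before hearing and the response to ATP, had 89.9, 82.3 and 87.2 FPKM for Ano1 and 41.9, 46.2 and 50.9 FPKM for P2rx2. Early otic genes were low, with 0.834, 0.387 and 0.543 FPKM for Pax2, and Pax8 was listed at 0 in every sample. Calml4, a calmodulin-like protein, had 84.8, 199.9 and 184 FPKM and was at least 2-fold lower in sample 1. Stmn3, Aldh1a3 and Dlx5 were at least 2-fold higher there, and Stmn3, a stathmin that neurons also make, had 90.8, 17.3 and 16.3 FPKM.

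Connexins, which join the cells of the cochlear epithelium and ligament into networks that pass potassium and small molecules, were led by Gjb2. Gjb2 had 407, 287 and 299 FPKM and Gjb6 had 120.3, 65.7 and 60.2 FPKM, so that Gjb2 was 3.38, 4.38 and 4.96 times the level of Gjb6, and the pair did not overlap in range. Both were highest in sample 1. The others followed with Gjc3 at 33.8, 8.98 and 7.9 FPKM, Gjc1 at 12.6, 10.8 and 9.85 FPKM, Gja1 at 4.61, 2.76 and 2.78 FPKM and Gjb1 at 3.34, 1.39 and 0.922 FPKM. Gjc3 and Gjb1, connexins of Schwann cells, were at least 2-fold higher in sample 1. Of the water channels, Aqp1 had 34.4, 48.5 and 52.2 FPKM, and Aqp4, found in supporting cells, had 7.2, 20.5 and 18.7 FPKM and was at least 2-fold lower in sample 1.

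Marginal cell genes of the stria covered a wide range of levels. In every sample 9 of 19 reached 10 FPKM, or 47.4%, beside 28.7% of all genes. Slc12a2, the sodium-potassium-chloride cotransporter, had 91.1, 68.3 and 64 FPKM, but it is not particular to the stria. Kcnq1, the potassium channel through which marginal cells secrete potassium, had 4.61, 3.51 and 4.27 FPKM, and its subunit Kcne1 had 0.362, 0.385 and 0.464 FPKM. Bsnd, the chloride channel subunit barttin, had 0.106, 0.0658 and 0.0903 FPKM, and Esrrb, a nuclear receptor of marginal cells, had 0.285, 0.418 and 0.351 FPKM. Kcne1, Esrrb and Bsnd were each below 1 FPKM in all 3 samples, while 15 of 19 members of the list were detected.

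Of 16 genes of intermediate cells, the melanocytes of the stria, 8 were detected, or 50%, a share near the 55.8% of all genes. The melanin enzyme genes Dct, Tyr and Tyrp1 had 0.773, 2.66 and 2.12 FPKM for Dct, 0.102, 0.371 and 0.158 FPKM for Tyr and 0.167, 0.109 and 0.0298 FPKM for Tyrp1. Kcnj10, the potassium channel that sets the endocochlear potential in intermediate cells, had 33.6, 24.3 and 25 FPKM, but glia and supporting cells make it too. Cd63 with 499, 406 and 416 FPKM and Gsta4 with 103, 95.5 and 94.9 FPKM led the list, and many cells express them.

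Of the genes of the spiral ligament and basal cells, 16 of 19 were detected, and the median percentile was 89.5, against 66.2 for marginal and 47.9 for intermediate cell genes. Pou3f4, a POU factor of otic mesenchyme, had 90.8, 97.9 and 104 FPKM, and Tbx18, needed for ligament fibrocytes, had 57.8, 52.8 and 50.9 FPKM. Cldn11, the tight-junction protein of basal cells and of myelin, had 53.2, 44.6 and 45.2 FPKM. Coch (chromosome 12, 51593341 to 51605771) codes for cochlin, a secreted protein of fibrocytes of the ligament and limbus, and had 704, 131 and 128 FPKM, far higher in sample 1 than in the others. Car3, a carbonic anhydrase, was also at least 2-fold higher in sample 1 with 320.1, 96.2 and 91 FPKM, and Anxa1, an annexin, was at least 2-fold lower with 61.9, 163 and 148 FPKM. Slc26a4, which codes for pendrin of spindle, root and outer sulcus cells, had 8.01, 5.91 and 6.52 FPKM.

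**Figure D4:**
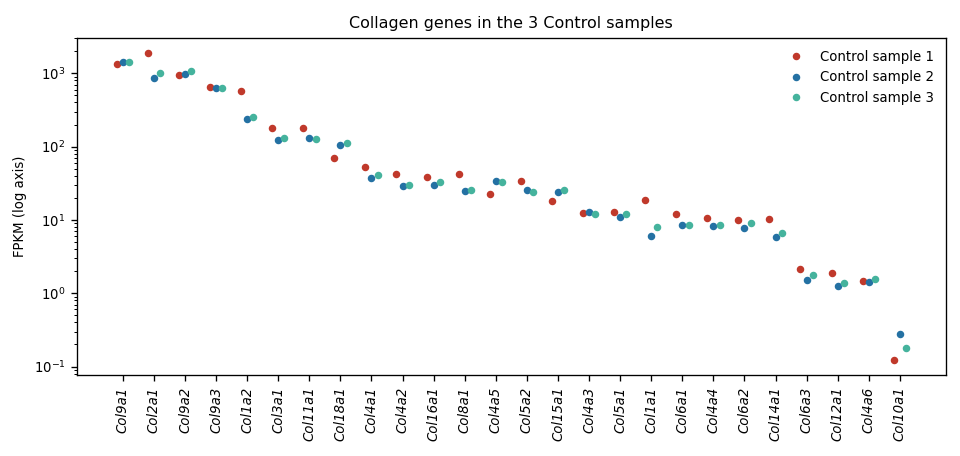
FPKM (log axis) of every listed collagen gene with a row of its own in Control samples 1 (red), 2 (blue) and 3 (green), in order of mean level. The cartilage-type genes Col9a1, Col2a1, Col9a2 and Col9a3 stand above the interstitial and basement membrane collagens.

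Among collagens the chains of cartilage led, which is also the collagen type of the tectorial membrane. Col9a1 had 1353, 1405 and 1405 FPKM, Col9a2 942, 993 and 1067 FPKM and Col9a3 640.2, 622 and 634 FPKM, the chains of collagen IX. Col2a1, the chain of collagen II, had 1894, 870.0 and 996 FPKM, highest in sample 1. Col11a1, of collagen XI, had 178, 130.0 and 127 FPKM. Of the interstitial collagens, Col1a2 had 577, 236 and 257 FPKM and Col3a1 181, 125 and 132 FPKM. The basement membrane chains Col4a1 and Col4a2 had 52.4, 37.5 and 40.4 FPKM for Col4a1 and 42.7, 28.7 and 29.9 FPKM for Col4a2. Both were above Col4a3 and Col4a4, which are among the chains of mature epithelial basement membranes. These had 12.4, 12.9 and 12.1 FPKM for Col4a3 and 10.5, 8.26 and 8.6 FPKM for Col4a4. Of the other Col4 genes, Col4a5 had 22.4, 33.7 and 33 FPKM, above Col4a2 in samples 2 and 3, and Col4a6 had 1.45, 1.44 and 1.55 FPKM. Of 44 matrix genes with a row, 43 were detected, and the median difference of sample 1 was 0.42. The proteoglycan genes Lum and Dcn, neighbours in the small leucine-rich family, had 906, 1308 and 1199.5 FPKM for Lum and 327, 418 and 383 FPKM for Dcn and were lower in sample 1, whereas Col1a1, Col1a2, Hspg2 and Fmod were at least 2-fold higher there.

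Neuronal genes were higher in sample 1 than in samples 2 and 3. The median of the 34 spiral ganglion genes was 13.6 FPKM in sample 1, 3.63 in sample 2 and 3.67 in sample 3. The neurofilament genes, structural proteins of axons, were Nefl with 93.3, 21.3 and 24.6 FPKM, Nefm with 46.1, 17.3 and 15.5 FPKM and Nefh with 29.3, 3.62 and 3.62 FPKM. Snap25, a release protein of synapses, had 70.8, 9.14 and 9.45 FPKM, and Slc17a7, the vesicular glutamate transporter of these neurons, had 21.1, 1.31 and 1.16 FPKM. Tubb3, a tubulin of neurons, had 51.5, 15.2 and 16.1 FPKM, and Pou4f1, a POU factor of a subset of spiral ganglion neurons, had 1.44, 0.189 and 0.312 FPKM. In each of these genes sample 1 was at least 2-fold above both others. That held for 21 of 31 members past 1 FPKM, or 67.7%, beside 4.52% of all genes, and none was 2-fold lower. The list summed to 991, 652 and 663 FPKM in samples 1, 2 and 3.

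Not every gene of the neuronal list followed. Uchl1, a ubiquitin hydrolase, had 275, 342 and 360.2 FPKM, the homeobox gene Isl1 had 70.1, 83.7 and 74.8 FPKM, and the synaptotagmin gene Syt1 had 40.1, 43.4 and 41.4 FPKM. Gap43, a growth cone protein, had 8.2, 8.4 and 11.1 FPKM, and Epha4, an ephrin receptor, had 6.66, 8.18 and 8.6 FPKM. These 5 differed by less than 2-fold between samples. Isl1 is also known from hair cells and the prosensory epithelium. Type II neuron genes were low, with 0.571, 0.249 and 0.512 FPKM for Prph and 1.08, 0.111 and 0.228 FPKM for Th.

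Schwann cell genes were also higher in sample 1. Pmp22 and Mbp, proteins of peripheral myelin, had 667, 129 and 130.3 FPKM for Pmp22 and 538, 105 and 106 FPKM for Mbp. Egr2, the factor that drives myelination, had 8.82, 2.57 and 2.89 FPKM, and the adaptor gene Prx, of mature Schwann cells, had 54.9, 13.7 and 14.6 FPKM. At least 2-fold higher in sample 1 were 19 of 25 members, or 76%, beside 4.52% of all genes. The list summed to 3751 FPKM in sample 1, 1202 in sample 2 and 1207 in sample 3, and Pmp22 and Mbp were above 100 FPKM in samples 2 and 3 also. Other members did not show this gap. Sox10 had 71.5, 70.1 and 85.1 FPKM, S100b, a calcium-binding protein also found in the epithelium, had 286, 184 and 179.8 FPKM, Fabp7, a lipid-binding protein of glia and of inner phalangeal cells, had 157, 324 and 306 FPKM and was lower in sample 1, and Erbb3 had 21.6, 29.8 and 30 FPKM.

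**Figure D5:**
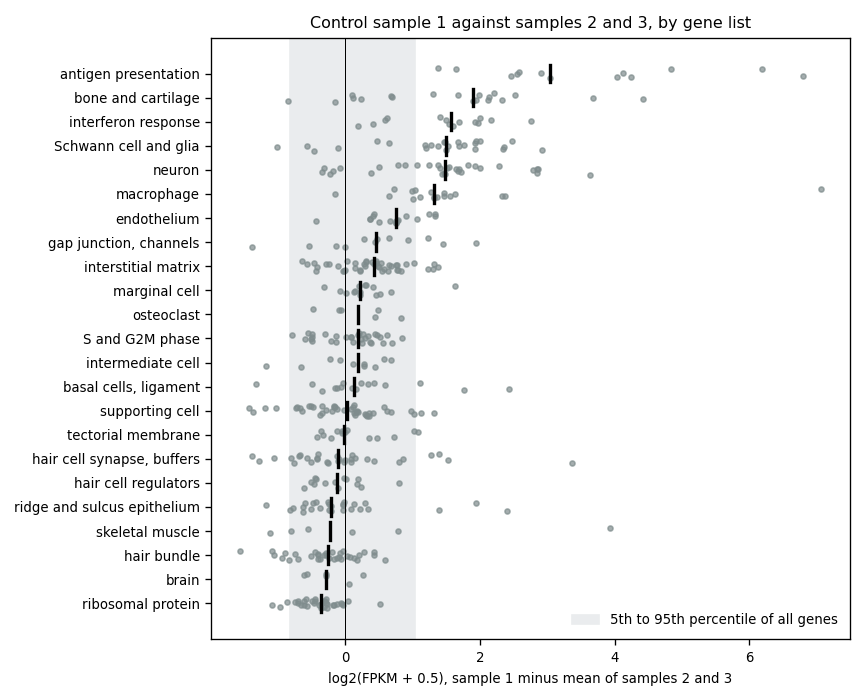
Difference of Control sample 1 from the mean of samples 2 and 3 in log2(FPKM + 0.5) (horizontal) for each listed gene past 1 FPKM in at least 1 sample, by list; bars are list medians and the grey band holds the middle of all 12940 genes, from the 5th to the 95th percentile. Medians of the neuron, Schwann cell, bone, macrophage, interferon and antigen presentation lists lie above 1, and those of the hair cell, supporting cell and tectorial membrane lists lie near 0.

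Bone and macrophage genes were higher in sample 1 too. Of the bone genes, Bglap, which codes for osteocalcin, had 68.2, 2.37 and 3.09 FPKM, Ibsp, bone sialoprotein, 461, 82 and 78.1 FPKM, and Sp7, the osteoblast factor osterix, 13.5, 2.21 and 2.39 FPKM. At least 2-fold higher in sample 1 were 12 of 19 members past 1 FPKM, beside 4.52% of all genes. The same share stands beside each such count in this paragraph. The list median of all 25 members went from 7.11 FPKM in sample 1 to 2.37 and 3.09 FPKM. The cartilage gene Lect1, which codes for chondromodulin, was an exception with 591, 654 and 666 FPKM. Of the osteoclast genes, 0 of 6 members past 1 FPKM were 2-fold higher in sample 1. Of the macrophage genes, Csf1r, the receptor for a macrophage growth factor, had 22.6, 8.24 and 8.8 FPKM, C1qa, a complement subunit, 65.7, 19.9 and 24.4 FPKM, and Cx3cr1, the fractalkine receptor, 14.5, 5.63 and 5.41 FPKM. The bone list summed to 1509, 854 and 865 FPKM and the macrophage list to 683, 166 and 162 FPKM. In the macrophage list 12 of 18 members past 1 FPKM were at least 2-fold higher in sample 1. Endothelial genes were led by Emcn, which codes for endomucin, with 135, 181 and 184 FPKM, and those such as Pecam1 with 8.99, 4.55 and 5.74 FPKM and Cdh5 with 13, 7.73 and 7.03 FPKM had a median difference of 0.76, with 3 of 17 past 2-fold. Against this direction, Hbb-bt, a β-globin gene of red blood cells, had 5.86, 51.9 and 59.5 FPKM, lowest in sample 1.

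Genes of antigen presentation were higher in sample 1, with a median difference of 3.04. This list was put together after its leading genes had been seen, so its counts only describe it. Cd74, the chaperone of class II molecules and a member of the macrophage list, had 230.4, 1.01 and 1.5 FPKM. The class II genes H2-Ab1 and H2-Aa had 80.1, 0.115 and 0.353 FPKM for H2-Ab1 and 51.7, 0.132 and 0.316 FPKM for H2-Aa. B2m, the light chain of class I molecules, had 2104, 268 and 242 FPKM, and H2-K1, a class I heavy chain, had 243, 31.9 and 32 FPKM. Psmb9 and Tap1, which make and transport the peptides that class I molecules carry, had 61.5, 1.66 and 1.66 FPKM for Psmb9 and 45.4, 2.16 and 2.1 FPKM for Tap1. All 13 members with a row were at least 2-fold higher in sample 1 than in both others. Interferon response genes followed, with 10 of 14 past 2-fold, beside 4.52% of all genes. Irf7, an interferon-induced factor, had 6.99, 1.39 and 1.36 FPKM, whereas Oas1a had 3.45, 3.2 and 2.73 FPKM.

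Genes of dividing cells were mostly low. Of 35 S and G2M phase genes with a row, 26 were detected, or 74.3%, beside 55.8% of all genes. But 2 reached 10 FPKM in every sample, or 5.71%, beside 28.7% of all genes, and the median percentile was 47.4. Mki67, found in all cycling cells, had 1.32, 1.16 and 0.946 FPKM, and Top2a, which unlinks chromosomes, had 3.24, 2.68 and 2.08 FPKM. The exceptions were Pcna, a sliding clamp that also serves DNA repair, with 55.2, 49.3 and 47.2 FPKM and the helicase subunit Mcm7 with 12.7, 18.1 and 18.2 FPKM, whose locus is shared with 6 other rows. In contrast Cdkn1b, which codes for p27, the inhibitor that holds supporting cells out of division, had 133, 131 and 115 FPKM and was 101, 113 and 121 times the level of Mki67. The related inhibitors Cdkn1a and Cdkn1c had 165, 96.6 and 102 FPKM for Cdkn1a and 66.2, 83.1 and 91 FPKM for Cdkn1c. Of the D cyclins, Ccnd3 had 50.2, 54.6 and 58.1 FPKM, Ccnd1 30.1, 39.3 and 38.9 FPKM and Ccnd2 12.9, 12.4 and 12.4 FPKM. Cdkn2a was near 0 with 0.126, 0 and 0 FPKM. On the log2(FPKM + 0.5) scale no gene of the cell cycle lists was 2-fold apart between sample 1 and both others, although Ccnb1, a cyclin of mitosis, had 3.05, 1.47 and 1.51 FPKM and the inhibitor gene Cdkn2b had 0.474, 1.56 and 1.2 FPKM, both past 2-fold in FPKM itself.

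Genes of muscle and brain were mostly low. Of 16 skeletal muscle genes 2 were detected, and Acta1, Ckm and Myh8, which code for an actin, a creatine kinase and a myosin of skeletal muscle, had at most 0.132 FPKM in any sample. The exceptions included Tnnt1, a troponin of slow muscle, with 8.07, 15 and 14 FPKM and Myl1, a myosin light chain, with 18.2, 0.519 and 0.986 FPKM, high in sample 1 alone. Of 14 brain genes 5 were detected, the myelin gene Mog of the central nervous system was listed at 0 in 2 samples and had 0.0325 FPKM in the other, and Olig2 had at most 0.124 FPKM. Ttr, a carrier protein abundant in choroid plexus, had 25, 38.8 and 35.5 FPKM. Of vestibular genes, Otop1 had 1.36, 0.0745 and 0.0256 FPKM, and Otol1, an otolith collagen that the cochlea makes as well, had 21.6, 30.1 and 28.2 FPKM. Immediate early genes, which respond to dissection, were moderate, with 3.98, 1.35 and 1.87 FPKM for Fos and 16.1, 7.18 and 8.71 FPKM for Egr1, both highest in sample 1.

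Sex-linked genes also separated the samples. Xist, made by cells with a silenced X chromosome, had 84.5, 28.7 and 25.6 FPKM. The Y-linked genes Ddx3y and Eif2s3y had 0, 16.7 and 15.1 FPKM for Ddx3y and 0, 25 and 21.2 FPKM for Eif2s3y, listed at 0 in sample 1. Uty with 0, 12 and 15.9 FPKM and Kdm5d with 0, 5.88 and 5.36 FPKM were also listed at 0 in sample 1. Samples 2 and 3 held RNA of both kinds, and sample 1 held Xist with the Y-linked genes listed at 0. Sample 1 thus did not hold the same mix of animals by sex as samples 2 and 3. Whether samples 2 and 3 came from separate pools remains unknown. Sample 1 was below both others in 28 of 33 ribosomal protein genes, beside the 49.8% of genes past 1 FPKM, with a median difference of -0.36. The part of sex, of the neural, bone and macrophage RNA and of RNA quality in the other differences of sample 1 was not tested.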

How the data were processed

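The values are FPKM per gene, deposited by the authors in 1 table of the whole series. Per the submitters' processing notes, the mm10 build, Cuffdiff, Cufflinks 2.2.1, Bowtie2 2.2.1, TopHat2 2.0.10, CASAVA 1.8 and Trimmomatic 0.23 were used, in roles and an order not given there. Where FPKM is scaled by the total of fragments, a few very high genes can lower all others. Whether these values were scaled so is not known here. Factors that would bring the median gene of samples 1, 2 and 3 to a common level were 1.03, 0.987 and 0.987, near 1. The 3 Control columns were matched to samples by title. Of 23598 rows, 647 merged rows and 1065 small RNA rows were left out, and of several rows of 1 symbol the highest was kept, which removed 546 rows and left 21340. Differences are on the log2(FPKM + 0.5) scale, for genes with at least 1 FPKM in 1 sample, and understate the change of low genes. Percentiles and ranks are by the mean over all 21340 genes. Computation used Python 3.11.15, pandas 2.3.3 and numpy 2.4.6, tested on simulated data.

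The members and lists were chosen with earlier results of these data known. Genes were named by a rule: in each list the 5 highest, those under 0.1 FPKM in all 3 samples and the 3 least even between samples, plus defining markers, the 20 highest genes and the 10 with the largest and smallest sample 1 differences. Some genes the rule gives, mostly in lists of other tissues, are covered by counts only, and some other genes were named after their values were seen. Some listed genes are counted but not reported by name here. Coordinates are from GENCODE M21 and promoters from RefSeq.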

Additional observations from a re-analysis of the deposited data

How the results depend on the processing

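Pseudocount, filter, scaling, detection threshold, treatment of merged and repeated rows and leaving out each sample were varied. The number of detected genes stayed within 1.5 times the reported one in all 7 alternatives. Of 12940 genes, 39 differed at least 2-fold between samples 2 and 3, against 105 with a pseudocount of 0.1, 14 with a pseudocount of 1, 59 without the filter and 113 with each sample scaled to the same sum of FPKM. Sample 1 was at least 2-fold below both others in 228 genes, against 365 with a pseudocount of 0.1, 148 with a pseudocount of 1 and 531 with the sum scaling. With the sum scaling, the median difference of sample 1 went from -0.26 to -0.42 for hair bundle genes, from -0.11 to -0.26 for hair cell synapse genes and from 0.03 to -0.17 for supporting cell genes. The same scaling turned the sign for cell cycle inhibitor genes from 0.02 to -0.12 and for Notch pathway genes from 0.14 to -0.0069. All sum-scaled values depend on the predicted rows 2410017I17Rik and Gm6034, which held 17.8, 1.02 and 0% of the sums in samples 1, 2 and 3. These rows lower every other gene of sample 1 under this scaling, and scaling without them was not tried. Leaving out 1 of replicates 2 and 3 gave an inhibitor median from -0.068 (without replicate 3) to 0.054 (without replicate 2). Without the filter, which 19 of 25 bone members passed, the bone median went from 1.89 to 0.70. The members added were under 1 FPKM in every sample, where the pseudocount shrinks differences. No paired analysis was possible because only 1 group was described. The depth is unknown, and with 3 samples, 1 of which stands apart, the spread of a group mean is poorly known.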

Other observations

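The genes with the largest differences of sample 1 include several not described above. AA388235 had 956, 0 and 0 FPKM, listed at 0 in samples 2 and 3. The interferon-induced GTPase genes Tgtp2 and Tgtp1 had 39.6, 0.126 and 0.202 FPKM for Tgtp2 and 38.7, 0.148 and 0.188 FPKM for Tgtp1, and the class I gene H2-Q4 had 129, 5.07 and 5.19 FPKM. These are members of multigene families, so reads may be divided between near-identical genes. In the other direction, Pttg1, which codes for securin, an inhibitor of chromosome separation, had 3.89, 53.6 and 53.6 FPKM. Crabp2, which binds retinoic acid, had 36.4, 118 and 117 FPKM, and Apoc1, an apolipoprotein, had 18.6, 79.2 and 54.5 FPKM. Aldh1a7 had 7.65, 32.1 and 31.8 FPKM, P4ha2, a collagen-modifying enzyme, had 7.34, 24 and 26.7 FPKM, Nabp1 had 4.01, 16.8 and 15.4 FPKM, Ccpg1os had 4.75, 17.5 and 17.7 FPKM and Gnpda1 had 4.16, 14.1 and 15 FPKM.

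Col1a2 and Col1a1, whose products join in 1 collagen molecule, were far apart in level, with Col1a2 at 30.4, 38.7 and 32.3 times the FPKM of Col1a1 in samples 1, 2 and 3. The cause of these values was not tested.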
